A study of Mus musculus with 2 samples.

Results

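The regions described here are the GATA4 sites of adult mouse liver that lay inside a first intron but away from any promoter. They were chosen from the 4409 sites that both peak callers of the study found, by position alone. The midpoint of a site had to lie more than 1 kb from the transcription start site (TSS) of every protein-coding transcript of GENCODE M1, and inside the first intron of the longest protein-coding transcript of a gene, longest meaning the largest sum of exon lengths. This rule found 609 sites, 13.8% of all common sites (95% interval 12.8 to 14.9). Of the remaining sites, 1106 (25.1%) lay in later introns, 1217 (27.6%) in the flanks of genes (outside the longest transcripts and up to 50 kb from a TSS), 740 (16.8%) farther away, 651 (14.8%) within 1 kb of a TSS and 86 (1.95%) in exons. The sites just inside the distance limit had midpoints 1004, 1018 and 1031 bp from a TSS, and those just outside lay at 967, 992 and 1000 bp. A further 116 sites lay in a first intron but within 1 kb of a TSS.

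GATA4 is a zinc-finger transcription factor that binds the WGATAR motif, a GATA core with A or T before it and A or G after it, on either strand. It is known for its part in heart, gut and liver development, and in the adult liver it is made both in hepatocytes and in cells of the sinusoids. FOG proteins bind GATA factors and modify what they do at a site. First introns often carry regulatory elements of the gene they interrupt, and they are transcribed early.

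ChIP-seq was carried out on whole liver of C57BL/6 x Sv129 mice 2 to 3 months of age by the labels (the methods give a slightly older range) with the GATA4 antibody C-20, and input DNA of liver was the background. No mutation or treatment was compared. The methods name 2 biological replicates of 2 mice each, whereas GEO's labels give 1 ChIP and 1 input sample. The data were therefore treated as 1 pooled ChIP sample. The 3 peak lists cover both replicates together: 4811 SPP sites, 5867 MACS2 sites and the 4409 common ones, which carry the SPP coordinates. Values per replicate and read counts were not analysed here. The depth behind a single site is unknown, sites and not animals are the units of every test, and intervals cover counting error only. Which liver cells held GATA4 at a site cannot be told apart from these lists of whole tissue. After Gata4 was deleted in hepatocytes only, the paper found GATA4 almost completely lost from the loci it examined by ChIP, FOG1 among them.

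Central stretches are shown for sites with low numbers in the common list, for introns with several sites and for both ends of the motif range, since the motif is the sequence feature that nearly all of these sites share. Sequences are from the mm9 reference (NCBI Build 37), 81 bases 5′ to 3′ on the strand given. WGATAR matches on either strand are in capitals, and the match nearest to the midpoint of the site begins at base 38.
St3gal4, site 4, chr9:34866726-34866806, minus strand: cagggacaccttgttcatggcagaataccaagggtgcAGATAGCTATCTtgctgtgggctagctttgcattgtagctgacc
Epas1, site 15, chr17:87169205-87169285, minus strand: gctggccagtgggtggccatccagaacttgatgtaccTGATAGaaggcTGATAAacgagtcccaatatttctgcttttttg
Epas1, site 344, chr17:87176144-87176224, minus strand: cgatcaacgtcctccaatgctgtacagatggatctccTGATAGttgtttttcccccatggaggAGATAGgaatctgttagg
Epas1, site 957, chr17:87154794-87154874, plus strand: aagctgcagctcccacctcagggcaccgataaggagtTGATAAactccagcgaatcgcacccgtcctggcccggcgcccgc
Bach2, site 27, chr4:32374990-32375070, minus strand: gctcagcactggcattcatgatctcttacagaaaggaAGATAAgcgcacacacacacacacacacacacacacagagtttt
Bach2, site 4081, chr4:32375486-32375566, plus strand: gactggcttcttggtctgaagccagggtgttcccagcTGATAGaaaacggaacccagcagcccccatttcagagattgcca
Klf13, site 34, chr7:71041883-71041963, minus strand: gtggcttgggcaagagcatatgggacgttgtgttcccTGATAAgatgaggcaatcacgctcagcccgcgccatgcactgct
Mrc1, site 62, chr2:14157117-14157197, minus strand: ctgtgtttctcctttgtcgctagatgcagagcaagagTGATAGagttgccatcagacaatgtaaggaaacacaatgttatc
Ddah1, site 84, chr3:145461816-145461896, minus strand: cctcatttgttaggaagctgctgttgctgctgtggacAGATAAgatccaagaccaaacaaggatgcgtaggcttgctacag
Gna12, site 113, chr5:141291198-141291278, minus strand: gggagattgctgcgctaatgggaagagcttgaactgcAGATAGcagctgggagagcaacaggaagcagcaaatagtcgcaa
Gna12, site 2355, chr5:141292083-141292163, plus strand: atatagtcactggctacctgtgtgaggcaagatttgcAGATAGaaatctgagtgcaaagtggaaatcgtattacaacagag
Gna12, site 2315, chr5:141292917-141292997, plus strand: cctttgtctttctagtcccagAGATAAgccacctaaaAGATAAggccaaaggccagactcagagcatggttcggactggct
Ghr, site 179, chr15:3435567-3435647, minus strand: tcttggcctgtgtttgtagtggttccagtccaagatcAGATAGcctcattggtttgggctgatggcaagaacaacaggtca
Zfp710, site 3524, without the motif, chr7:87197202-87197282, plus strand: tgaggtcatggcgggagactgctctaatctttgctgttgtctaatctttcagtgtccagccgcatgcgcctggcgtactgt
The site of St3gal4 joins 2 hexamers back to back on opposite strands, while the site of Epas1 numbered 15 holds a pair on the same strand. The Zfp710 stretch is centred on the midpoint of a site that holds neither WGATAR nor the shorter WGATA or GATAR.

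Whole sites are shown for the extremes of the motif count. Lclat1, which encodes an acyltransferase of cardiolipin, held one of the 5 sites with 5 WGATAR, the most found in a site. Among these it had the lowest list number of those up to 300 bases long. Its plus-strand sequence (mm9, chr17:73491840-73492044) contains an AGATAA that shares its last base with the next one, and such overlaps were counted once.
Lclat1, site 297: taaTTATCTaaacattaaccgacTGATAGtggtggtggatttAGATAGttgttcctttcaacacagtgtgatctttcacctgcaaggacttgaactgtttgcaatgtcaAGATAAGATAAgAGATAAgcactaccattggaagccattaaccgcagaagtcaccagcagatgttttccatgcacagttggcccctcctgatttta
Plekha2, which encodes a phosphoinositide-binding adaptor, held the lowest-numbered site without a match (mm9, chr8:26210035-26210256, plus strand).
Plekha2, site 245: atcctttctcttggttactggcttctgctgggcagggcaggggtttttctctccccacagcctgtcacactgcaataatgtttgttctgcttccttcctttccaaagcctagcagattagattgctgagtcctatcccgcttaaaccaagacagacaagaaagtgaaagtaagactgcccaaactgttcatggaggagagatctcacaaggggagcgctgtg

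One gene model needs to be named before the results that it touches. Gm20388 (ENSMUSG00000092329.1, plus strand of chromosome 8, 122434741 to 126869622) is annotated with a first intron of 4.38 Mb that contains 72 other coding genes. It took in 30 of the 609 sites (4.93%), of which 25 were in no other first intron. Inside it, 14 of the 30 sites lay within another coding gene, 7 of them within Zfpm1, the gene of FOG1. Leaving this model out gave 584 sites. Among all 499 first introns with a site, 3.50% of those that could be searched, 11 contained a whole other coding gene. A further overlap was small, as 18 of the 609 sites (2.96%) also lay in a later intron of another gene.

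First introns held more GATA4 sites per base than later introns did. Over the bases that the rule could reach, the density was 2.97 sites per Mb in first introns (609 sites in 205 Mb), 1.79 in later introns (1106 in 619 Mb) and 2.06 in gene flanks (1217 in 590 Mb). These bases leave out gaps in the reference but not repeats, where uniquely placed reads can be missing. Whether repeat content differed between the classes was not tested. The ratio of first to later introns was 1.66 (95% interval 1.50 to 1.83, exact binomial test, two-sided, p = 2.0e-22), and it was 1.62 without Gm20388. Because first introns lie nearer to a TSS, densities were also compared within bands of distance to the nearest coding TSS. In the band from 1 to 5 kb, first introns had 4.02 sites per Mb (3.46 to 4.63), later introns 1.98 (1.61 to 2.40) and flanks 2.79 (2.45 to 3.17). The first-to-later ratio there was 2.03 (1.59 to 2.62, exact binomial test, adjusted p = 2.4e-08 over 6 bands). From 10 to 25 kb the ratio was 1.62 (1.32 to 1.99, adjusted p = 1.1e-05, same exact test), with 3.10 against 1.91 sites per Mb.

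Other bands did not pass the test. From 5 to 10 kb the densities were 3.34 and 2.57 per Mb, a ratio of 1.30 (1.01 to 1.67, exact binomial test, adjusted p = 0.081). From 25 to 50 kb they were 2.76 and 2.43, a ratio of 1.14 (0.888 to 1.44). From 50 to 100 kb the ratio was 1.08 (0.758 to 1.52), and without Gm20388 it was 0.983. Beyond 100 kb, where 21 first-intron sites remained in 18.3 Mb, it was 1.36 (0.815 to 2.18). Adjusted p of these last 3 bands lay between 0.28 and 0.6 by the same exact test. Across these bands, density in first introns thus went down with distance to the nearest TSS of any gene, from 4.02 to 1.15 per Mb. The far bands hold bases of long introns only, and first introns above 100 kb held 1.25 sites per Mb (without Gm20388). The bands therefore do not show how density changes along an intron.

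**Figure D1:**
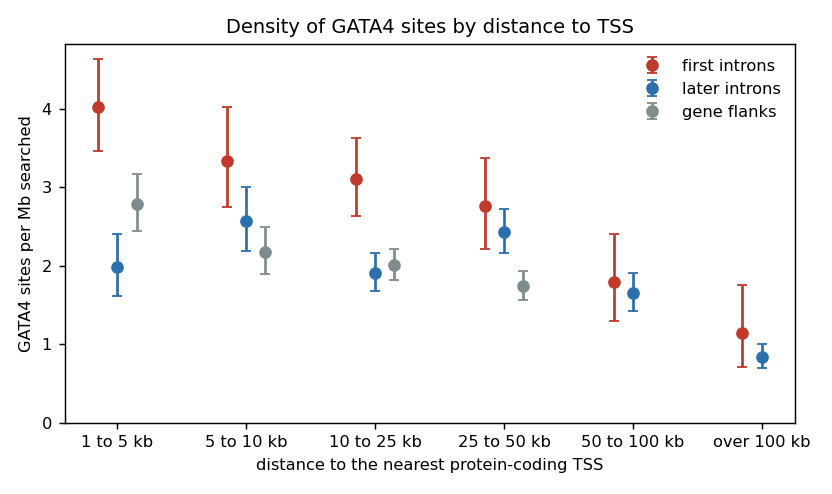
GATA4 sites per Mb of searched sequence (vertical axis) in 6 bands of distance to the nearest protein-coding TSS (horizontal axis), for first introns (red), later introns (blue) and gene flanks (grey, which end at 50 kb). Points are densities and bars exact 95% Poisson intervals; the intervals of first and later introns do not overlap from 1 to 5 kb, where first introns had 4.02 sites per Mb and later introns 1.98, and from 10 to 25 kb.

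Distances to the TSS of the own gene, here and below that of its longest transcript, ranged widely. The median was 13570 bp, with quartiles at 5173 and 38575 bp. Between 1 and 2 kb lay 42 sites (6.90%), and 51 sites (8.37%) lay beyond 100 kb, where the largest values belong to Gm20388. Over all transcripts, the TSS nearest to a site belonged to its own gene for 550 sites (90.3%). For 202 sites (33.2%) the own gene had another annotated TSS downstream of the site, so that for a shorter transcript of the gene these sites lie upstream.

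Sites were spread along the intron. After the searched bases of each first intron were scaled to the same length, 297 of 609 sites (48.8%, 44.8 to 52.7) lay in the 5′ part up to its midpoint (exact binomial test, two-sided, p = 0.57). When the intron was divided into 10 equal bins, shares ran from 7.22% in bin 3 to 12.5% in bin 7. Bin 1, at the 5′ end, held 12.0% and bin 10 held 9.36%.

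**Figure D2:**
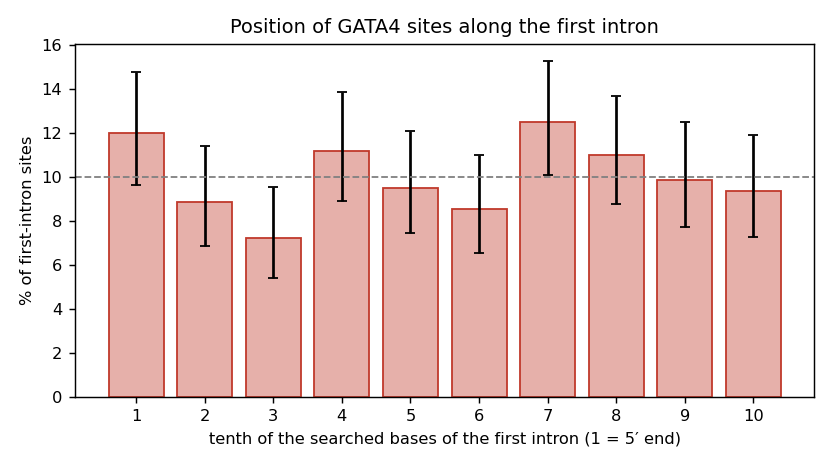
Share of the 609 first-intron sites (vertical axis, %) in each of 10 equal bins of the searched bases of their own first intron (horizontal axis, bin 1 is the 5′ end). Bars are shares with 95% Wilson intervals and the dashed line marks an even spread; shares lie between 7.22% and 12.5%.

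Sites were found in 499 genes, 3.50% of the 14273 coding genes whose first intron could be searched. Most of these genes, 437 (87.6%), had 1 site, while 46 had 2 and 16 had 3 or more. Their first introns were long, with a median of 28.4 kb against 5.14 kb over all searchable genes. Among genes with a first intron of up to 5 kb, 36 of 7022 (0.513%) had a site. The share was 3.24% (149 of 4605) from 5 to 20 kb, 10.2% (173 of 1697) from 20 to 50 kb, 14.4% (87 of 604) from 50 to 100 kb and 15.7% (54 of 345) above. Counted per base and without Gm20388, the order was different. Introns of up to 5 kb held 3.43 sites per Mb (2.40 to 4.75), those of 20 to 50 kb 3.95 (3.42 to 4.53) and those above 100 kb 1.25 (0.986 to 1.57).

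WGATAR was present in 531 of the 609 sites (87.2%, 84.3 to 89.6). Windows of the same widths moved by 5000 bp held it in 31.5% of cases to the right and 29.2% to the left. Most sites had a single match, as 318 (52.2%) held 1, 149 (24.5%) held 2, 46 (7.55%) held 3 and 18 (2.96%) held 4 or more. When WGATA or GATAR was accepted, 580 sites (95.2%) had a match, which left 29 with neither. Matches were centred on the sites. The 20-bp bins left and right of the midpoint held 27.9 and 23.2 matches per 100 sites, and there were between 1.81 and 4.11 in the bins 160 to 200 bp away.

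**Figure D3:**
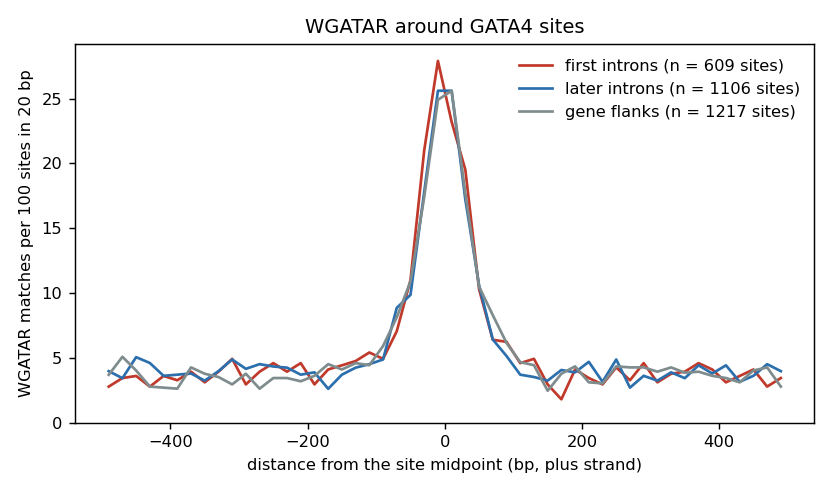
WGATAR matches per 100 sites in bins of 20 bp (vertical axis) by distance from the midpoint of the site on the plus strand (horizontal axis, bp), for first introns (red, 609 sites), later introns (blue, 1106) and gene flanks (grey, 1217). All 3 lines peak at the midpoint, where the red line reaches 27.9.

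No difference in motif content between first-intron sites and other sites passed the test. Later-intron sites held WGATAR in 84.8% of cases (938 of 1106, Fisher's exact test, adjusted p = 0.48 over 10 comparisons of site classes) and flank sites in 83.8% (1020 of 1217, adjusted p = 0.2). The mean number per site was 1.36 ± 0.931 (SD, n = 609) in first introns, 1.33 ± 0.899 in later introns (permutation test, adjusted p = 0.72) and 1.32 ± 0.940 in flanks (permutation test, adjusted p = 0.59). GC content of the central 300 bp was 48.8% ± 5.81 in first introns, 48.2% ± 5.52 in later introns (permutation p = 0.031, adjusted p = 0.16) and 48.8% ± 6.24 in flanks. None of the 10 comparisons passed adjustment, and the smallest adjusted p was 0.13.

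AGATAA was the commonest form of the motif, with 367 of 831 matches (44.2%), followed by TGATAA with 215 (25.9%), AGATAG with 151 (18.2%) and TGATAG with 98 (11.8%). In later introns the same order held, at 45.7%, 27.5%, 16.5% and 10.3% of 1475 matches. The strand of the gene carried 413 of the 831 matches (49.7%, exact binomial test, two-sided, p = 0.89). Neighbouring matches within a site formed 300 pairs, of which 170 (56.7%) lay on the same strand, against 249 of 537 pairs (46.4%) in later introns. This difference was not tested. Starts were 51.0 bp apart in the median first-intron pair and at most 10 bp apart in 22 pairs, the St3gal4 pair shown above among them.

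Motifs of other factors were searched in the central 300 bp on both strands. The ETS core AGGAAG was in 55.3% of first-intron sites, against 30.9% and 33.3% of windows 5000 bp to the right and left. The nuclear receptor motif AGGTCA was in 32.8% (20.5% and 19.7%), the NF1 motif TTGGCA in 21.2% (13.6% on both sides) and the C/EBP form TTGCNNAA in 18.4% (12.6% and 11.3%). Forkhead matches, TGTTTAC or TATTTAC, were in 13.1% (8.70% and 9.52%), and the HNF1 form GTTAATNAT was in 1.81% (0.657% on both sides). No test was made against the windows beside the sites.

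Of the remaining motifs, the E-box CAGATG was in 21.2% (25.6% and 23.8%) and the HNF6 form ATTGAT, which can overlap a TGATAA, in 61 of the 609 sites (12.3% and 9.69%). AP-1 (TGANTCA) was also in 61 sites (7.88% and 9.03%), STAT (TTCNNNGAA) in 9.69% (7.72% and 8.21%) and SP1 (GGGCGG) in 8.54% (6.73% and 5.75%). Over all 4409 common sites, promoters included, the shares of these last 3 were 10.6%, 11.4% and 14.5%. Of 22 comparisons with later introns and flanks, 0 passed adjustment and 0 had an unadjusted p under 0.05 by Fisher's exact test. The smallest p, 0.064, was for STAT (9.69% against 12.7% in flanks), and AP-1 followed, with 61 of 609 against 155 of 1217 flank sites (12.7%). With the whole peak scanned in place of 300 bp, STAT was in 28 of 609 first-intron and 106 of 1217 flank sites (8.71%, Fisher's exact test, adjusted p = 0.026).

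The deposited score is 1000 for every peak, so that it holds no information on strength. The number in the name of a common site is the only order in the files, and what it follows is not stated in them. With the common list divided into 4 equal parts by this number, first-intron sites made up 13.5%, 13.2%, 14.1% and 14.4% of parts 1 to 4. Their mean number was 2260 ± 1281 (SD), against 2231 ± 1284 for later introns (permutation test, adjusted p = 0.8) and 2103 ± 1251 for flanks (permutation p = 0.013, adjusted p = 0.13). Without Gm20388 the difference from flanks, 186 places, had an adjusted p of 0.033 by the same permutation test. WGATAR was in 91.9% of first-intron sites of part 1 (137 of 149), 89.7% in part 2, 85.2% in part 3 and 82.4% in part 4 (131 of 159).

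Site width was 210 ± 85.2 bp (80 to 631 bp), 211 bp in later introns and 205 bp in flanks, with adjusted permutation p of 0.8 and 0.48. A width of exactly 320 bp was shared by 163 first-intron sites (26.8%), 27.3% of later-intron sites and 22.5% of flank sites. It was found in 1 of 149 first-intron sites of part 1 of the list and in 102 of 159 (64.2%) of part 4. Sites of this width held WGATAR in 89.6% of cases and the others in 86.3%. The median width was 189 bp, so a site of 320 bp gave more sequence for a match than most others. Neither these shares nor those by part of the list were matched for width.

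The 20 first-intron sites with the lowest list numbers fell in 18 gene models. Site 4 lay in St3gal4, which encodes a sialyltransferase, 57.6 kb downstream of the TSS. Site 15 lay in Epas1, which encodes the hypoxia-inducible factor HIF-2α, 16.0 kb downstream. Site 27 was in Bach2, a transcriptional repressor of lymphocytes, and site 34 in Klf13, a Krüppel-like factor, 49.3 and 41.9 kb from their TSS. None of these lay within 10 kb of its TSS. The TSS nearest to site 34 was that of another Klf13 transcript, 27827 bp away.

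Others were nearer. Site 62 lay 6.10 kb into Mrc1, the gene of the mannose receptor of sinusoidal endothelium and macrophages, and held 4 WGATAR. Site 83 lay 6.16 kb into Pid1, whose first intron spans 125 kb. Site 131 lay 1.14 kb into Ino80c, a subunit gene of the INO80 chromatin remodeller. Sites 175 and 176 lay 3.36 kb into Ept1, which encodes an ethanolamine phosphotransferase, and 3.50 kb into Mob1b, which encodes a kinase activator of the Hippo pathway.

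Further sites of this set lay in Ddah1 (site 84), whose enzyme degrades an inhibitor of nitric oxide synthesis, in Gna12 (site 113), a G protein subunit, and in Kcnk3 (site 170), an acid-sensitive potassium channel. Tmcc3, Fam20a and A930011G23Rik held 1 each, with site 134 of the last carrying 5 WGATAR. Site 70 was in the predicted gene Gm16253 and also in a later intron of Polr3gl. Gm20388 took 3 of the 20. Of these, site 109 is the widest of all 609 at 631 bp. It lay in a later intron of Zfpm1 and counts as a first-intron site through Gm20388 alone. Sites 95 and 150 were nearest to the TSS of Galnt2 and Cbfa2t3. MACS2 numbers of the 20 sites ran from 11 for site 109 to 934 for site 179 in Ghr.

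Beside Gm20388, 15 genes had 3 or more first-intron sites. Bach2 and Dlc1 had 6 each, Prkce 5, and Rcan1 and Zfp710 4 each. Creb3l2, Cuedc1, Ddah1, Epas1, Epb4.1l2, Gna12, Iqsec1, Nav1, Pip4k2a and Tshz2 had 3 each. First introns of these 15 genes measured between 42.8 kb (Epas1) and 250 kb (Tshz2).

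Clusters and spaced sites both occurred. In Bach2, sites 4137, 1358 and 3015 lay 6.97, 8.13 and 8.88 kb from the TSS, sites 27 and 4081 at 49.3 and 49.8 kb, and site 1306 at 67.6 kb. The coding TSS nearest to sites 27, 1306 and 1358 was that of another gene, D130062J21Rik, 3206 bp from site 1358. Sites 27 and 4081, with midpoints 563 bp apart, fell in the same MACS2 peak. The 3 sites of Gna12 stood in a row at 13.4, 14.3 and 15.1 kb, with gaps of 844 and 862 bp between midpoints. Creb3l2, a factor of the endoplasmic reticulum stress response, had 2 sites 808 bp apart at 10.5 and 11.3 kb and another at 16.2 kb, which lacked WGATAR.

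Dlc1, which encodes a GTPase-activating protein, had sites from 28.2 to 87.8 kb along an intron of 133 kb, and all 6 held WGATAR. Prkce, the gene of protein kinase C epsilon, had them at 18.0, 40.5, 135, 146 and 183 kb of an intron of 185 kb. The gene held 10 common sites over its whole length. Epas1 had first-intron sites at 1.59, 16.0 and 22.9 kb, 3 of its 5 common sites, and all 3 held WGATAR as printed above. The sites of Tshz2, a zinc-finger factor gene, lay at 150, 154 and 157 kb. A TSS of another Tshz2 transcript lay 101407 bp from site 874, that at 150 kb. Zfp710 stood apart in sequence, as 3 of its 4 sites lacked WGATAR.

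**Figure D4:**
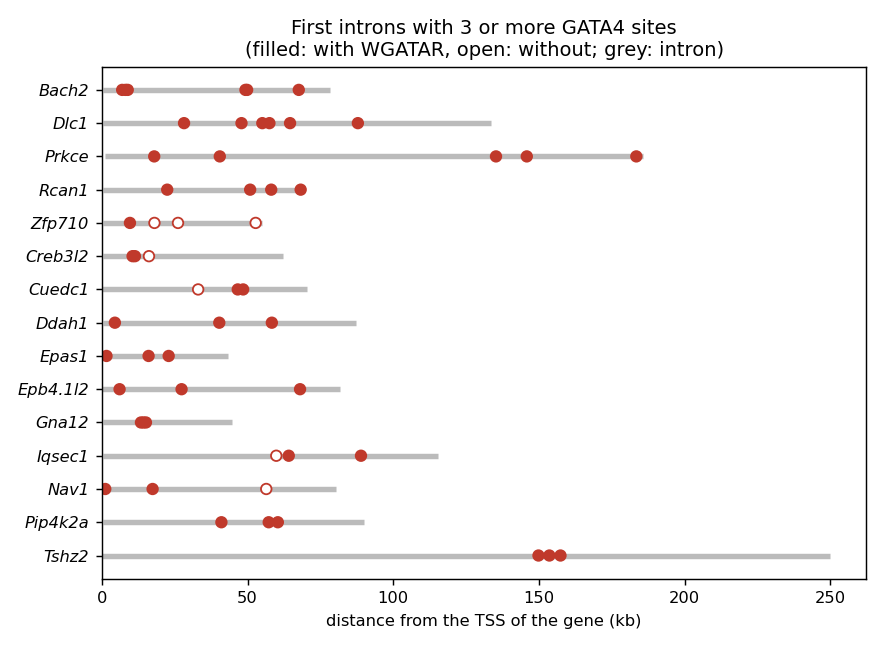
The 15 genes other than Gm20388 with 3 or more first-intron sites (rows). The horizontal axis is the distance of each site from the TSS of the longest transcript of the gene (kb). Grey bars are first introns, filled points sites with WGATAR and open points sites without it; 3 of the 4 points of Zfp710 are open, and the 3 points of Gna12 lie between 13.4 and 15.1 kb.

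Over all 609 sites, another common site of any class had its midpoint within 2 kb of 33 sites (5.42%), within 5 kb of 63 (10.3%) and within 10 kb of 116 (19.0%). The median distance to the nearest other site was 52565 bp. A site within 1 kb of a TSS of the same gene was found for 34 of the 499 genes with a first-intron site (6.81%) and for 34 of 756 genes that had a later-intron site but no first-intron site (4.50%). This difference did not pass the test (Fisher's exact test, two-sided, p = 0.097). With the MACS2 list it was 4.22 percentage points (Fisher's exact test, p = 0.0072).

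Host genes were also read against 14 gene lists, as counts and sites per Mb beside the 3.50% of all searchable genes and the 2.97 sites per Mb of all first introns. The lists were written by hand with earlier results of these data known, so their shares and densities are descriptive only. Their median first introns ran from 2.88 kb (Kupffer and blood cells) to 109 kb (neuronal set), against 5.14 kb over all searchable genes. For TGF-beta and BMP genes the median was 23.9 kb. Genes with longer first introns more often held a site, and the 3.50% was not matched for length. Of the GATA and FOG genes, 1 of 5 had a site. Zfpm1 held site 534, with 3 WGATAR, 14.6 kb from its TSS, and site 4170, with none, at 2.32 kb. Both also lie inside the Gm20388 intron. The other genes of the list had none, but only 5 of its 8 genes had a first intron that could be searched.

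Liver transcription factor genes had a first-intron site in 5 of 18 cases (27.8%, 12.5 to 50.9), at 17.3 sites per Mb (5.61 to 40.3). They were Nr1i2, the xenobiotic receptor PXR (site 537, 6.89 kb from the TSS), Nr1h4, the bile acid receptor FXR (site 2439, 2.19 kb), Foxo1, a forkhead factor restrained by insulin (site 3407, 74.6 kb), Rxra, the common partner of nuclear receptors (site 3420, 26.2 kb), and Onecut2 (site 4216, 2.12 kb). Hnf4a and the Foxa genes had none, but only 18 of the 24 annotated genes of the list could be searched. Whether these genes were among the 18 is not given here. In the leading part of the common list, up to number 2204, which held sites in 255 of the 499 genes, 1 of these 5 genes remained, Nr1i2.

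Lipid and sterol genes had a site in 5 of 46 cases (10.9%, 4.73 to 23.0), at 7.81 sites per Mb (2.86 to 17.0). Scarb1, the high-density lipoprotein receptor, held sites 815 and 1057 at 14.5 and 3.92 kb, and Cpt1a, the entry step of fatty acid oxidation in mitochondria, held site 1106 at 9.99 kb. Cyp7b1 and Acsl1 held 1 each. Glucose and insulin genes had a site in 4 of 29 cases (13.8%, 5.50 to 30.6), at 8.55 per Mb (2.33 to 21.9), led by Gbe1, the glycogen branching enzyme (site 1204, 14.6 kb), with Fbp1 and Ptpn1 at higher numbers. Amino acid and drug metabolism genes had 1 of 28 (3.57%), Got1, at 7.59 per Mb (0.192 to 42.3). Clock genes had 2 of 12 (16.7%), Tef and Rora, at 2.78 per Mb, beside the 2.97 of all first introns. No test compared the lists with each other.

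In signalling lists, TGF-beta and BMP genes had a site in 6 of 28 cases (21.4%, 10.2 to 39.5), at 7.77 sites per Mb (2.85 to 16.9). The co-receptor gene Tgfbr3 (site 625, 16.8 kb) and the receptor gene Acvr1 (site 883, 9.64 kb) led, followed by Smurf1, a ubiquitin ligase of Smads, Smad3, Bmpr2 and the inhibitory Smad6. Growth factor and MAP kinase genes had 6 of 39 (15.4%, 7.25 to 29.7), at 6.06 per Mb (2.44 to 12.5). Ghr, the growth hormone receptor, held sites 179 and 214 at 97.6 and 92.2 kb, 5458 bp apart, each with 2 WGATAR. The TSS nearest to them was that of another Ghr transcript, 13953 and 19411 bp away. Egfr (site 2399), Spred2, Mapk9, Map2k3 and Il6ra held 1 each. Wnt and Hippo genes had 3 of 27 (11.1%) at 5.05 per Mb (1.04 to 14.8), namely Tead1, Amot and Vgll4, with list numbers from 2954 to 3375. In the leading part of the common list, genes with a site fell from 499 to 255 over all genes. Counts fell from 6 to 1 for growth factor and MAP kinase genes, from 5 to 2 for lipid genes and from 4 to 1 for glucose genes. They fell from 3 to 0 for Wnt and Hippo genes, from 2 to 1 for clock genes and from 1 to 0 for amino acid and drug genes. TGF-beta and BMP genes kept 6 of 6, endothelial markers 6 of 8 and GATA and FOG genes 1 of 1.

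Endothelial marker genes had a site in 8 of 34 cases (23.5%, 12.4 to 40.0), with 11 sites at 18.8 per Mb (9.38 to 33.6). Beside Epas1 and Mrc1 these were Flt1, a receptor of vascular endothelial growth factor (site 1238, 4.41 kb), Tek, the angiopoietin receptor (site 1355, 7.33 kb, without WGATAR), Bmpr2 (site 1750, 39.9 kb, with 4 WGATAR), Fli1, an ETS factor (sites 1783 and 4063), Tspan7 and Dnase1l3. Epas1, Mrc1 and Bmpr2 are also made outside endothelium, and Bmpr2 is counted in the TGF-beta list as well. Tek and Fli1 also had a site within 1 kb of a TSS. Epas1 held 3 of the 11 sites and Fli1 held sites 1783 and 4063, while the density interval counted each site as independent.

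Other cell type lists held none. This was 0 of 14 searchable genes for stellate cells, 0 of 14 for Kupffer and blood cells and 0 of 7 for cholangiocytes, in at most 0.115 Mb of searched intron each, where a count of 0 (3 counts as its limit) still allows 26.1, 78.6 and 26.1 sites per Mb. The neuronal set gives a tighter limit. Its 34 genes have long first introns (median 109 kb, 5.60 Mb in all) and held 0 sites, which allows up to 0.536 per Mb. Long introns were sparse in general, as all first introns above 100 kb held 1.25 sites per Mb (0.986 to 1.57, without Gm20388). With the MACS2 list, 1 gene of the neuronal set had a site.

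**Figure D5:**
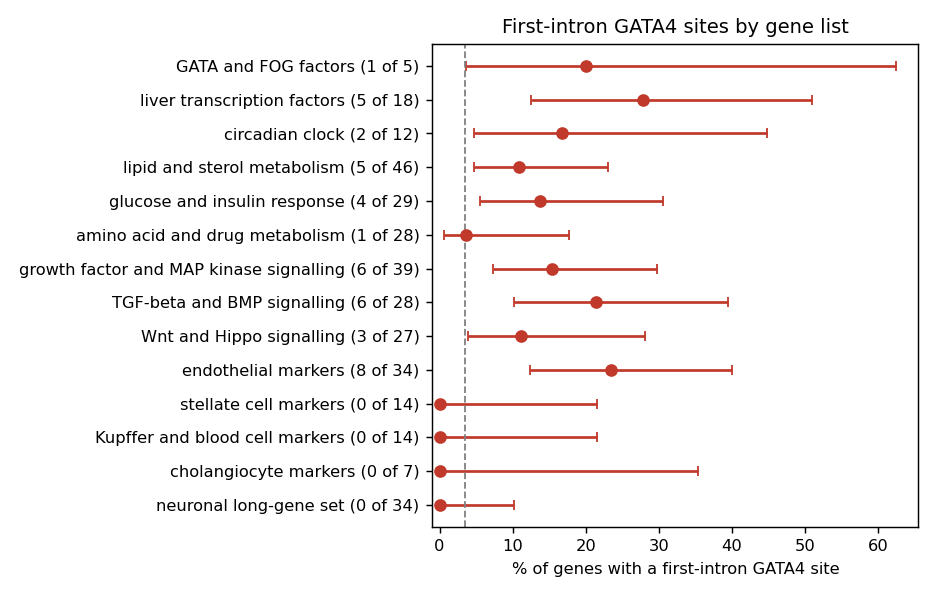
Share of genes with a first-intron GATA4 site (horizontal axis, %) in 14 gene lists (rows, with the number of genes with a site and of searchable genes). Points are shares, bars 95% Wilson intervals and the dashed line 3.50%, the share over all searchable genes. Points of every list with a site lie to its right, from amino acid and drug metabolism (3.57%) to liver transcription factors (27.8%). Those of the last 4 lists lie at 0. The lists were chosen with earlier results of these data known, so the figure is descriptive only.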

How the data were processed

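Per the labels and methods, the authors aligned single reads to mm9 with Bowtie 0.12.7, kept uniquely placed reads, called peaks with SPP and MACS2 2.0.10 against input, set thresholds by the reproducibility of the replicates, and intersected both lists with bedtools 2.16.1, keeping SPP coordinates. The authors deposited 3 browser tracks whose score column is 1000 throughout and was not used as a measurement. Read counts and the input library were not analysed here. Positions are printed 1-based.

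Genes were the longest coding transcripts of 22372 coding genes (51723 coding transcripts) of GENCODE M1 on the same build, and all 4409 sites ended within its chromosomes. Searched bases were bases over 1 kb from every coding TSS. Motifs were matched exactly on both strands, overlapping WGATAR matches on a strand counted once. Shares were compared by Fisher's exact test, densities by the exact binomial test and means by 100000 permutations (smallest possible p 1e-05, seed 1), two-sided, with Benjamini-Hochberg adjustment over 6 bands, 10 site-class tests and 22 motif tests at a threshold of 0.05. Intervals are 95% Wilson (shares) or exact Poisson (densities). The functions were tested on simulated data. Named genes are those of the 20 lowest-numbered sites, those with 3 or more sites and those of 14 hand-written lists. Some genes of the lists are counted but not reported here by name. The members and lists were chosen with earlier results of these data known. Alternatives were the distance limit, the transcript rule, either caller's list, the leading part of the common list, 1 site per gene and the stretch scanned, and 2 were added after the data were seen (without Gm20388, and without first introns that contain another coding gene). Versions were numba 0.67.0, pysam 0.24.0, matplotlib 3.10.9, pandas 2.3.3, scipy 1.17.1 and numpy 2.4.6 under Python 3.11.15.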

Additional observations from a re-analysis of the deposited data

How the results depend on the processing

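Density was higher in first than in later introns under all 8 alternatives that bear on it. Ratios ran from 1.583 (longest transcript by genomic span) to 1.796 (1 site per gene). The setting with 1 site per gene dropped further sites of a gene but left the searched bases unchanged. As a gene can have several later introns but only 1 first intron, its ratio is not directly comparable with the others. The band from 1 to 5 kb and that from 10 to 25 kb passed the test in each alternative. The band from 5 to 10 kb passed with the SPP list (ratio 1.31), the MACS2 list (1.34) and without introns that contain another coding gene (1.34), and the band beyond 100 kb with the MACS2 list (1.65). From 50 to 100 kb the ratio fell under 1 in the leading part of the list (0.780), without Gm20388 (0.983) and without containing introns (0.980), and so did that from 25 to 50 kb without containing introns (0.998). The leading part of the list, by construction, held fewer sites (295) and genes with a site (255, from 499 over the whole list). Beside this general fall, 7 of the 14 gene lists lost more than a factor of 1.5 of their genes with a site there. With the MACS2 list the amino acid and drug list had 2 such genes and the neuronal set 1.

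The list number differed from that of flanks by 191.3 places with the longest transcript by span, 186.4 without Gm20388 and 183.3 without containing introns, and passed the test there. A promoter site in the same gene was more frequent by 4.22 percentage points, past the test, with the MACS2 list. With whole peaks scanned, 1 of the 22 motif comparisons passed, that of STAT with flanks. The cause of these changes was not tested.

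Small differences that passed no test changed sign. GC content minus flanks was 0.1278 points with a 2 kb limit, 0.2161 in the leading part and 0.0996 in 100 bp. The share in the 5′ part was 50.2% by span and 51.2% in the leading part. The share of WGATAR on the strand of the gene was 50.3% by span, 50.5% with MACS2, 51.6% in the leading part, 51.0% with 1 site per gene and 50.2% in 300 bp. The list number minus later introns was -41.8 with MACS2 and -6.31 in the leading part, width with MACS2 differed by 15.7 bp from later introns and -7.67 bp from flanks, and WGATAR per site minus later introns was -0.0268 in the leading part. Of 155 alternative values of main results, 133 kept direction and call.

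Repeats were not compared, since the reference marks none in lower case, and no replicate was left out, since the lists pool both. Without read counts, the strength of single sites was not compared.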
